A study of Homo sapiens with 24 samples.

Results

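The genes described here are 9 genes of MHC class I antigen presentation, HLA-B, HLA-C, HLA-E, HLA-F, B2M, TAP1, TAP2, TAPBP and PSMB9. They were picked by gene name from 4 deposited tables of mRNA sequencing, which list 16742 genes in any table, and all 9 were found in every table. Each table belongs to 1 aneuploid human cell line and the parental line it came from, with 3 libraries of each, so that 24 libraries stand behind the 4 tables. HCT116 is a colorectal carcinoma line with a modal number of 45 chromosomes, and RPE1 is a line of retinal pigment epithelium immortalized with hTERT, with a modal number of 46. HCT116 5/4 has 4 copies of chromosome 5 and is set beside HCT116. HCT116* 8/3 c7, a single clone, has 3 copies of chromosome 8 and is set beside HCT116*. RPE1 5/3 12/3 has 3 copies of chromosome 5 and 3 of chromosome 12 and is set beside RPE1, and RPE1* 21/3 has 3 copies of chromosome 21 and is set beside RPE1*. The asterisk marks lines, aneuploid and parental, that stably express the histone H2B tagged with GFP. Per the study's methods, extra chromosomes were brought in by transfer of single chromosomes from microcells, chromosome 12 of RPE1 5/3 12/3 was gained spontaneously, and HCT116 5/4 came from another laboratory. The cells grew without any further treatment.

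The value used is the authors' mean of normalised read counts over the 6 libraries of a table, so each value mixes an aneuploid line with its parental line. Deposited fold changes between aneuploid and parental lines are the authors' own comparisons and are not used, and single libraries are not used here. No aneuploid line could therefore be set against its parental line, the means carry no SD, and no test was possible. What the means show is the level of each gene in 2 tables of HCT116 background and 2 of RPE1 background. The labels state a planned depth of 25000000 reads of 100 bases per library, and the tables do not show the depth that was reached. Each table was normalised separately, and levels were set across tables after dividing by a factor from the median ratio over common genes, which lay between 0.819 and 1.12. Whether a mean reflects more cells with a transcript or more RNA per cell cannot be told apart in bulk RNA.

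The backgrounds were checked against markers of their tissue. KRT19, a keratin of simple epithelia, had means of 18421 and 19183 in the HCT116 tables and of 9.96 and 6.15 in the RPE1 tables, and CDH1, which encodes E-cadherin, was listed in the HCT116 tables with means of 1685 and 2534 and in neither RPE1 table. KRT8, another epithelial keratin, was at least 2-fold higher in the HCT116 tables. Of 9 colorectal markers, 3 were in all tables, VIL1 was in none, and LGR5 was listed only in the RPE1 5/3 12/3 table, with a mean of 3.59, against its label. Of 6 pigment epithelium markers, TYR was in no table, MITF and BEST1 were at least 2-fold higher in the RPE1 tables, and RPE65 and PMEL were at least 2-fold higher in the HCT116 tables, against the label of RPE1. The mesenchymal genes VIM, FN1 and COL1A1 were at least 2-fold higher in the RPE1 tables. Leukocyte markers were close to absent, since none of 5 was in all tables and the highest mean was 22.4 for CD14, and none of 3 endothelial markers was in all tables.

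MHC class I molecules display peptides from inside the cell to CD8+ T cells and are recognised by natural killer cells. The proteasome cuts cytosolic proteins, the TAP transporter carries the peptides into the endoplasmic reticulum, and tapasin holds the transporter next to an empty heavy chain paired with beta-2 microglobulin until a peptide fits. Interferons raise many of these genes together through IRF and STAT factors and NLRC5, and NF-kappaB acts on some of the heavy chain promoters.

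All of these genes except B2M lie in the MHC region of chromosome 6, and none lies on chromosome 5, 8, 12 or 21, the chromosomes gained in the 4 lines. In the GENCODE annotation of GRCh37, the build the reads were mapped to, HLA-F is at chr6:29690552-29706305 and HLA-E at chr6:30457286-30461971, both on the plus strand. HLA-C is at chr6:31236526-31239907 and HLA-B at chr6:31321649-31334844 on the minus strand. TAP2 at chr6:32789610-32806516 and TAP1 at chr6:32812986-32821593 are on the minus strand, PSMB9 at chr6:32811913-32827628 is on the plus strand, and TAPBP at chr6:33267471-33282061 is on the minus strand. B2M is at chr15:45003556-45011049 on the plus strand. These GENCODE spans of TAP1 and PSMB9 overlap on opposite strands. Reads were counted on RefSeq exons instead, and the RefSeq start sites used below are 488 bp apart and point away from each other. Whether the exons used in counting overlap was not checked, and the sources used here do not say whether strand was used.

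The heavy chain genes are close relatives, and the mapping kept 1 location per read. In the longest coding transcript of each, no stretch of 100 bases, the read length, of HLA-B (of 2944) or HLA-F (of 1445) was identical to one in another HLA gene. HLA-C shared 4 of 1455 such stretches with other HLA genes, and HLA-E shared 15 of 2449. Only identical stretches were counted, so whether reads were placed on a relative that differs by a few bases was not tested. These counts describe the reference sequence, and how far the alleles of HCT116 and RPE1 differ from it was not tested.

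The promoters of 5 of the genes are shown because they carry the contrasts below, namely HLA-B and HLA-F at the opposite ends of the differences between backgrounds, B2M as the common partner of all heavy chains, and TAP1 and PSMB9 as neighbours that start 488 bp apart on opposite strands. The sequences are the 250 bases upstream of the RefSeq start site on GRCh38.p14, read 5′ to 3′ on the strand of the gene. They lie at chr6:31357180-31357429 (minus strand) for HLA-B, chr6:29723184-29723433 (plus) for HLA-F, chr15:44711267-44711516 (plus) for B2M, chr6:32853705-32853954 (minus) for TAP1 and chr6:32853942-32854191 (plus) for PSMB9. Capitals mark matches on either strand to the letters GAAANNGAA, searched for the interferon response element, or GGGNNTNCC, searched for the kappaB site. Other spellings of these elements were not searched and are not marked. The letters gggactttcc, another kappaB spelling, stand in lower case in the TAP1 window and, on the opposite strand, in the B2M window.
HLA-B: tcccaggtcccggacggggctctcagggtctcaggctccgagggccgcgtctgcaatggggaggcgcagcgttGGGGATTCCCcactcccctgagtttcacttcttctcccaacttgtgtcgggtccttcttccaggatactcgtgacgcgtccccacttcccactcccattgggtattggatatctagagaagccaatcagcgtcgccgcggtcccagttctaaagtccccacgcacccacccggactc
HLA-F: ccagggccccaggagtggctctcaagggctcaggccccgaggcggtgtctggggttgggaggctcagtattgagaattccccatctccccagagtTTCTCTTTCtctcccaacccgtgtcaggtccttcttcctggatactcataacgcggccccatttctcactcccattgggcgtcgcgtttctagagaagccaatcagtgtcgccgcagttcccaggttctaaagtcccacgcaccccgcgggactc
B2M: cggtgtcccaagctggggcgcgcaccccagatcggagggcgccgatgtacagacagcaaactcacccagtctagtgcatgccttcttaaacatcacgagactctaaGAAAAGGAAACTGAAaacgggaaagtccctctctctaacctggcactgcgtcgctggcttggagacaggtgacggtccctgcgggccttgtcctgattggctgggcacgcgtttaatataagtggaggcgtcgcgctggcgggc
TAP1: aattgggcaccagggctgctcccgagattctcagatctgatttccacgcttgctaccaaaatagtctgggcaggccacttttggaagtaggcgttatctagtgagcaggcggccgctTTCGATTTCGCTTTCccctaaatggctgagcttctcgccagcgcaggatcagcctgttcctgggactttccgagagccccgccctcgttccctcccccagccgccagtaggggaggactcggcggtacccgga
PSMB9: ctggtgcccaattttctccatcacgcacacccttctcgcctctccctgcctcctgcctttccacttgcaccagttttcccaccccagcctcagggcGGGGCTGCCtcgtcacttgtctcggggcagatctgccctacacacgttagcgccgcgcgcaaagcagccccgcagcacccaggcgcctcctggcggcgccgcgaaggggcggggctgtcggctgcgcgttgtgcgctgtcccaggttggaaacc

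The capitals in HLA-B are 2 overlapping kappaB matches, GGGGATTCC and GGGATTCCC, and HLA-B had no match to the letters GAAANNGAA in this window. The letters tttcacttc, another spelling of the interferon element on the opposite strand, occur in the HLA-B and HLA-C windows but were not searched. HLA-F had 1 match to GAAANNGAA, on the opposite strand, and none to GGGNNTNCC. B2M had 2 overlapping matches to the interferon element, GAAAAGGAA and GAAACTGAA, and the window upstream of TAP1 start site 1 had 2 on the opposite strand. PSMB9 had a single match to the letters GGGNNTNCC, GGGGCTGCC. Among the genes not shown, TAP2 had 1 and TAPBP 2 matches to GAAANNGAA, and TAPBP also had a match to GGGNNTNCC. HLA-C and the start site 2 of TAP1 had no match to either of these patterns. Among all 35116 RefSeq promoter windows of this length, 6.88% held a match to GAAANNGAA and 18.2% a match to GGGNNTNCC. The CCAAT box, searched as CCAAT on both strands, was found in the windows of HLA-B, HLA-C, HLA-F, B2M, TAP1 and PSMB9 and in 32.0% of all windows. The windows of TAP1 and PSMB9 overlap at their far ends, and their CCAAT matches are the same bases read on opposite strands. A match describes the letters of the reference and not a bound site. By symbol 8 of the 9 genes were matched to this set, and HLA-E was not.

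The first comparison asked which of the genes differed between backgrounds. HLA-B, HLA-C and B2M were higher in both RPE1 tables than in both HCT116 tables by at least 2-fold, HLA-F was higher in both HCT116 tables by at least 2-fold, and TAP1 and TAP2 were higher in the HCT116 tables by less than that. Thus 3 of 9 genes passed 2-fold towards RPE1, where 12.1% of the 12764 genes with an average mean of at least 10 did so, and all 9 were among these. Conversely, 1 of 9 passed it towards HCT116, where 11.4% of all genes did so. By any fold, 5 of 9 were higher in both RPE1 tables, as were 40.3% of all genes, and 3 of 9 in both HCT116 tables, as were 40.1% of all genes. To be counted, the lower of the tables of a background had to be at least 2-fold above the higher of the other. HLA-C and B2M passed narrowly, and when tables were scaled by the sum or by the upper quartile of their means, only HLA-B remained of the 3. Those scalings move the median log2 ratio of all genes from -0.003 to -0.37 and -0.19. The shares called in all genes become 8.51% towards RPE1 and 17.6% towards HCT116 for the sum, and 9.97% and 14.2% for the upper quartile. The median log2 ratio of the 9 genes, RPE1 over HCT116, was 0.73, with a range from -1.89 to 2.37, and the quartiles of all genes were -0.61 and 0.63.

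**Figure D1:**
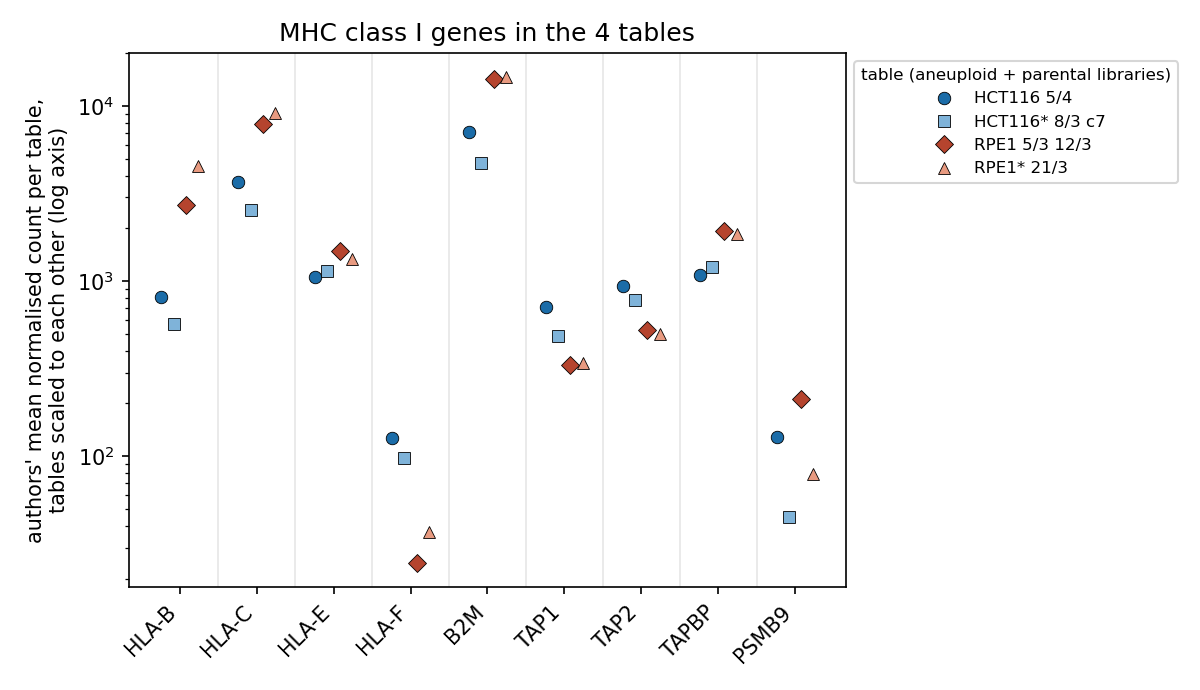
Level of each MHC class I gene in the 4 tables, as the authors' mean normalised count over 6 libraries after scaling the tables to each other (log axis), with 1 symbol per table. The red symbols of the RPE1 tables lie above the blue symbols of the HCT116 tables for HLA-B, HLA-C, HLA-E, B2M and TAPBP and below them for HLA-F, TAP1 and TAP2, while those of PSMB9 interleave. With tables scaled by the sum of their means, the ratio of HLA-E is close to 0 on the log2 scale (-0.00087).

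Among the heavy chains, HLA-B differed most. HLA-B, a classical heavy chain that presents peptides to CD8+ T cells, had means of 882 in the HCT116 5/4 table, 640 in HCT116* 8/3 c7, 2752 in RPE1 5/3 12/3 and 3733 in RPE1* 21/3. Both RPE1 tables were above both HCT116 tables, and after scaling the ratio of backgrounds was 5.17-fold, with at least 3.35-fold between the nearest tables. Its log2 ratio of 2.37 stood at a percentile of 94.8 among all genes tested.

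HLA-C, the other classical heavy chain of the set and a main ligand of killer cell immunoglobulin-like receptors, had means of 3973, 2843, 7919 and 7417 in the same order of tables. After scaling, the HCT116 tables were 1.45-fold apart and the RPE1 tables were 1.15-fold apart, and the RPE1 tables were 2.76-fold higher than the HCT116 tables, with 2.14-fold between the nearest tables. Its log2 ratio of 1.47 was second to that of HLA-B among the 9 genes.

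The nonclassical heavy chains behaved otherwise. HLA-E, which presents leader peptides of other class I molecules to the receptor NKG2A, had means of 1139, 1281, 1488 and 1101. The 4 values span a narrow range, and the scaled RPE1 tables were only 1.28-fold higher, a direction that is lost with tables scaled by the sum of their means (log2 ratio -0.00087). Relative to the shift of all genes under that scaling, HLA-E keeps its place, since a scaling moves all genes of a table alike.

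HLA-F, which reaches the surface in part without peptide and binds receptors of natural killer cells, had means of 137 and 109 in the HCT116 tables and of 24.7 and 30.3 in the RPE1 tables. The scaled HCT116 tables were 3.70-fold higher, with 2.64-fold between the nearest tables, and its log2 ratio stood at a percentile of 6.82. HLA-G, the other nonclassical gene of this kind, was listed only in the RPE1 5/3 12/3 table, with a mean of 4.16. HLA-F and HLA-B thus lay at opposite ends of the 9 genes.

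B2M encodes beta-2 microglobulin, the light chain that all class I heavy chains need to reach the surface. Its means were 7653, 5304, 14416 and 11930. After scaling, the RPE1 tables differed from each other by 1.02-fold and lay 2.49-fold above the HCT116 tables, with 2.02-fold between the nearest tables. The percentile of B2M among all genes of a table was between 96.1 and 98.6.

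**Figure D2:**
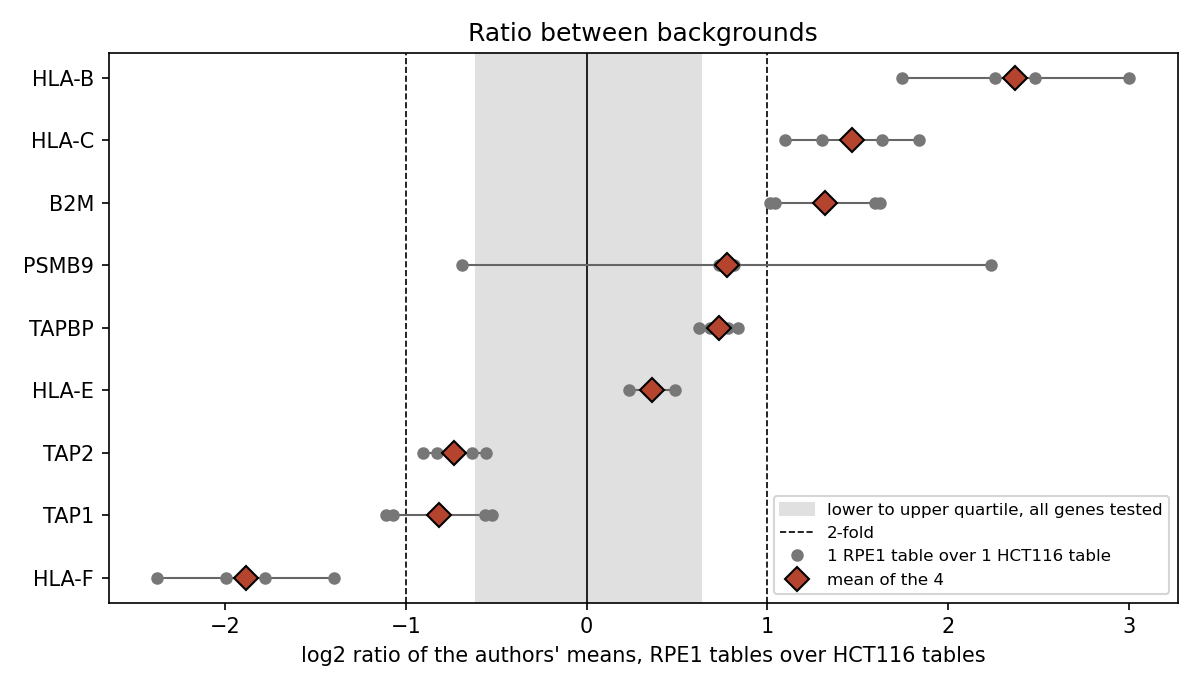
Log2 ratio of the authors' means between RPE1 and HCT116 tables (x axis) for each MHC class I gene, with grey points for the 4 pairs of tables and a red diamond for their mean. The grey band spans the quartiles of all 12764 genes tested (-0.61 to 0.63) and dashed lines mark 2-fold. All pairs of HLA-B, HLA-C and B2M lie beyond the 2-fold line to the right and those of HLA-F beyond it to the left, and the pairs of PSMB9 lie on both sides of 0.

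The transporter genes were higher in the HCT116 tables, on the other side from HLA-B, HLA-C and B2M and on that of HLA-F. TAP1, a subunit of the peptide transporter, had means of 769 and 547 in the HCT116 tables and of 333 and 277 in the RPE1 tables. After scaling the HCT116 tables were 1.76-fold higher, with 1.44-fold between the nearest tables, under the 2-fold threshold. TAP2, the partner subunit, had means of 1015, 871, 533 and 410 and was 1.66-fold higher in the HCT116 tables. Neither gene overlapped between backgrounds, and their log2 ratios of -0.82 and -0.73 were at percentiles of 19.6 and 21.6. Without the table of HCT116* 8/3 c7, the number of genes at least 2-fold higher towards HCT116 went from 1 to 2, with TAP1 at a log2 ratio of -1.10, while the share in all genes went from 11.4% to 13.3%. The ratio of TAP1 to TAP2 per kb of transcript was 1.68, 1.39, 1.39 and 1.499, so that the subunits kept a similar balance in all 4 tables.

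TAPBP encodes tapasin, which links the transporter to the heavy chain and edits the bound peptide. Its means were 1172, 1357, 1955 and 1526. The RPE1 tables were 1.66-fold higher after scaling, with 1.54-fold between the nearest tables. TAPBP therefore differed in the direction of B2M and HLA-C and not in that of TAP1 and TAP2.

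PSMB9 encodes a catalytic subunit of the immunoproteasome, which replaces PSMB6 after exposure to interferon gamma. Its means were 138 in HCT116 5/4, 50.6 in HCT116* 8/3 c7, 215 in RPE1 5/3 12/3 and 65.0 in RPE1* 21/3. The backgrounds overlapped, since HCT116 5/4 lay above RPE1* 21/3, and the ratio of 1.71-fold between backgrounds was smaller than the spread between the tables of either. Its log2 ratio of 0.77 was 0.014 without the table of HCT116* 8/3 c7, 0.072 without that of RPE1 5/3 12/3, 1.51 without that of HCT116 5/4 and 1.501 without that of RPE1* 21/3.

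That spread was the second comparison, between the tables of a background. PSMB9 was 2.84-fold higher in the HCT116 5/4 table than in that of HCT116* 8/3 c7 and 2.68-fold higher in the RPE1 5/3 12/3 table than in that of RPE1* 21/3. It was the only one of the 9 genes past 2-fold in either background, 1 of 9 each time, where 4.81% of all genes were at least 2-fold apart between the HCT116 tables and 3.07% between the RPE1 tables. In all genes, 33 of 12764, or 0.259%, were at least 2-fold higher in both of these tables, a count made after the values of PSMB9 were seen. The tables with the higher level are those of the lines with extra chromosome 5, and they are also those without H2B-GFP. Per the study's list of cell lines, HCT116 and HCT116 5/4 both came from another laboratory, whereas HCT116* was made from a culture collection stock. These features cannot be told apart. The means also do not show whether the difference lies in the aneuploid lines, the parental lines or both.

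**Figure D3:**
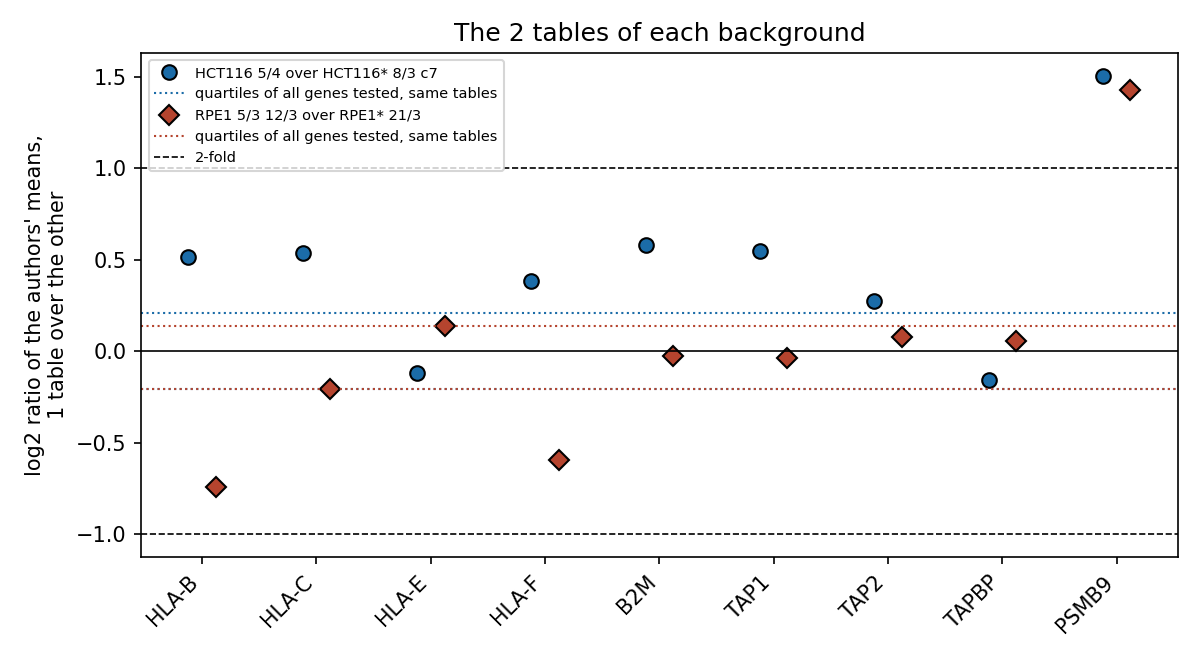
Log2 ratio between the tables of a background (y axis) for each MHC class I gene, as HCT116 5/4 over HCT116* 8/3 c7 (blue circles) and RPE1 5/3 12/3 over RPE1* 21/3 (red diamonds). Dotted lines mark the quartiles of all genes tested for the same tables and dashed lines mark 2-fold. PSMB9 alone lies beyond 2-fold, at 1.503 and 1.42.

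The other 8 genes differed less. In HCT116, 6 of 8 were higher in the 5/4 table, with a median log2 ratio of 0.45 where the quartiles of all genes were -0.21 and 0.21. HLA-B, HLA-C, B2M and TAP1 were between 1.43-fold and 1.498-fold higher there, whereas HLA-E and TAPBP were 1.08-fold and 1.11-fold higher in the HCT116* 8/3 c7 table. In RPE1, 3 of 8 were higher in the 5/3 12/3 table, with a median of -0.030 where the quartiles of all genes were -0.20 and 0.14. HLA-B was 1.67-fold and HLA-F 1.51-fold higher in the RPE1* 21/3 table, while B2M, TAP1, TAP2 and TAPBP differed by 1.06-fold or less.

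Levels of different genes were compared per kb of the longest annotated transcript, within a table. B2M came first and HLA-C second in all 4 tables. B2M reached 3286, 2277, 6190 and 5122 per kb, and exceeded HLA-C by 1.55-, 1.51-, 1.47- and 1.298-fold. In both HCT116 tables the order went on with HLA-E, TAPBP, TAP1, HLA-B, TAP2, HLA-F and PSMB9. In both RPE1 tables it went on with HLA-B, HLA-E, TAPBP, TAP1, TAP2, PSMB9 and HLA-F. Thus HLA-B stood at place 6 in HCT116 and at place 3 in RPE1, and HLA-F and PSMB9 traded places 8 and 9. Some neighbours were close, with TAPBP 1.03-fold above TAP1 and TAP1 1.11-fold above HLA-B in HCT116 5/4, and TAP2 1.07-fold above PSMB9 in RPE1 5/3 12/3, and without single libraries their order cannot be held against a spread. With other definitions of length, 2 to 5 genes changed place in 3 of the tables.

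Of the summed level per kb of the 4 heavy chain genes of the set, HLA-C made up 72.9%, 66.7%, 75.4% and 72.4%. HLA-B made up 8.58% and 7.96% in the HCT116 tables and 13.9% and 19.3% in the RPE1 tables. HLA-E accounted for 15.4% and 22.2% in HCT116 and for 10.5% and 7.93% in RPE1. HLA-F stayed at 3.07% and 3.13% in HCT116 and at 0.286% and 0.360% in RPE1. The ratio of HLA-C to B2M per kb, from 0.643 to 0.770, was therefore more even across tables than that of HLA-B to B2M, from 0.0757 to 0.205. With mean transcript lengths the first ratio was lower, from 0.365 to 0.437.

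**Figure D4:**
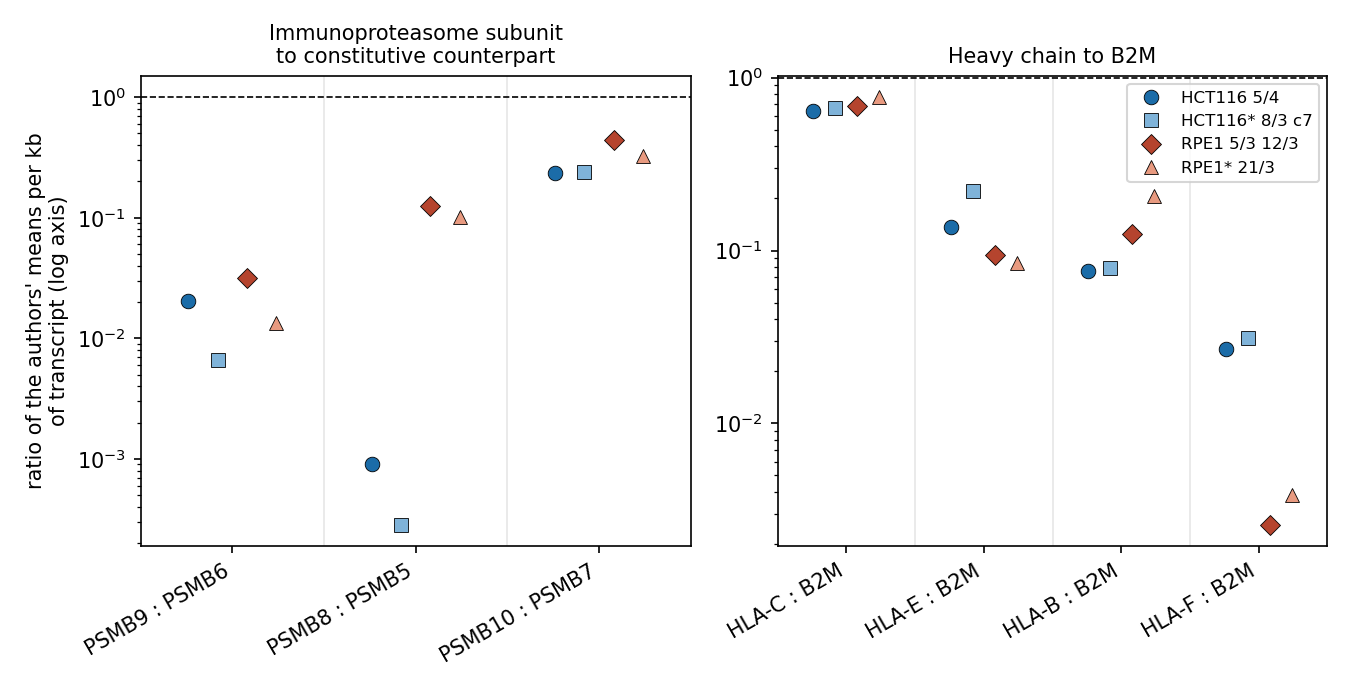
Ratio of the authors' means per kb of transcript (log axis) for immunoproteasome subunits to their constitutive counterparts (left) and for heavy chains to B2M (right), with 1 symbol per table and a dashed line at equal levels. HLA-C to B2M lies between 0.643 and 0.770 in all tables, and PSMB8 to PSMB5 is below 0.001 in the HCT116 tables and above 0.1 in the RPE1 tables.

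The wider pathway was described by fixed lists, and among 10 other genes of peptide supply, trimming and loading, 3 were at least 2-fold higher in the RPE1 tables and none in the HCT116 tables, 4 were higher in RPE1 by less and 3 overlapped. In all genes 12.1% and 11.4% passed 2-fold in these directions and 40.3% were higher in both RPE1 tables by any fold. Their median log2 ratio was 0.71. PSMB8, the immunoproteasome counterpart of PSMB5 and a neighbour of TAP1, had means of 5.43 and 2.002 in the HCT116 tables and of 689 and 477 in the RPE1 tables. The nearest scaled tables were 116-fold apart, whereas PSMB9 overlapped between backgrounds. The HCT116 means of PSMB8 are close to the smallest means listed in those tables, 3.36 and 1.98, so the size of its fold is uncertain. ERAP1, which trims peptides in the endoplasmic reticulum, had means of 474, 410, 3481 and 1830 and was 6.94-fold higher in RPE1. TAPBPL, a homologue of tapasin, had means of 11.7, 11.3, 117 and 38.5 and was 7.07-fold higher in RPE1, with 4.36-fold between the nearest tables. It lies on chromosome 12, which is gained in RPE1 5/3 12/3, and that table was 2.46-fold above that of RPE1* 21/3.

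Set against their constitutive counterparts per kb, the immunoproteasome subunits were the minor form in every table. PSMB9 to PSMB6 was 0.0206 and 0.00666 in the HCT116 tables and 0.0319 and 0.0133 in the RPE1 tables. PSMB10 to PSMB7 was 0.236 and 0.237 in HCT116 and 0.446 and 0.323 in RPE1. PSMB8 to PSMB5 was 0.00091 and 0.00028 in HCT116, where PSMB8 was close to the smallest means listed, and 0.125 and 0.102 in RPE1. The constitutive subunits PSMB5, PSMB6 and PSMB7 themselves overlapped between backgrounds, with a median log2 ratio of -0.046. PSME1 to PSME2, the subunits of the proteasome activator PA28, was 4.06 and 3.93 in HCT116 and 5.59 and 5.65 in RPE1, and with mean transcript lengths it was 1.61, 1.56, 2.22 and 2.24.

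Of 13 regulators of class I transcription, none passed 2-fold in either direction, where 12.1% of all genes did so towards RPE1 and 11.4% towards HCT116. By any fold, 6 were higher in both RPE1 tables, 2 were higher in both HCT116 tables and 5 overlapped. In all genes, 40.3% and 40.1% did not overlap in these directions. NLRC5, the transactivator of class I genes, had means of 347, 213, 640 and 370 and was 2.17-fold higher in the RPE1 tables, with 1.41-fold between the nearest tables. IRF2, which binds the interferon response element, was 2.24-fold higher in RPE1, with means of 234, 202, 498 and 324. IRF1, an activator at the same element, overlapped, with means of 877, 430, 1191 and 553.

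IRF1 followed the order of tables seen for PSMB9, with 2.12-fold between the HCT116 tables and 1.75-fold between the RPE1 tables, both higher in the table of the line with extra chromosome 5. IRF1 lies on chromosome 5, as do ERAP1, ERAP2 and CANX, for which the 5/4 table was 1.20-, 1.65- and 1.51-fold above that of HCT116* 8/3 c7 and the 5/3 12/3 table was 1.55-, 1.53- and 1.48-fold above that of RPE1* 21/3. NLRC5 was 1.69-fold higher in the table of HCT116 5/4 and 1.41-fold higher in that of RPE1 5/3 12/3. These genes were named for their place beside PSMB9 after their values were seen, and their part in the level of PSMB9 was not tested.

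**Figure D5:**
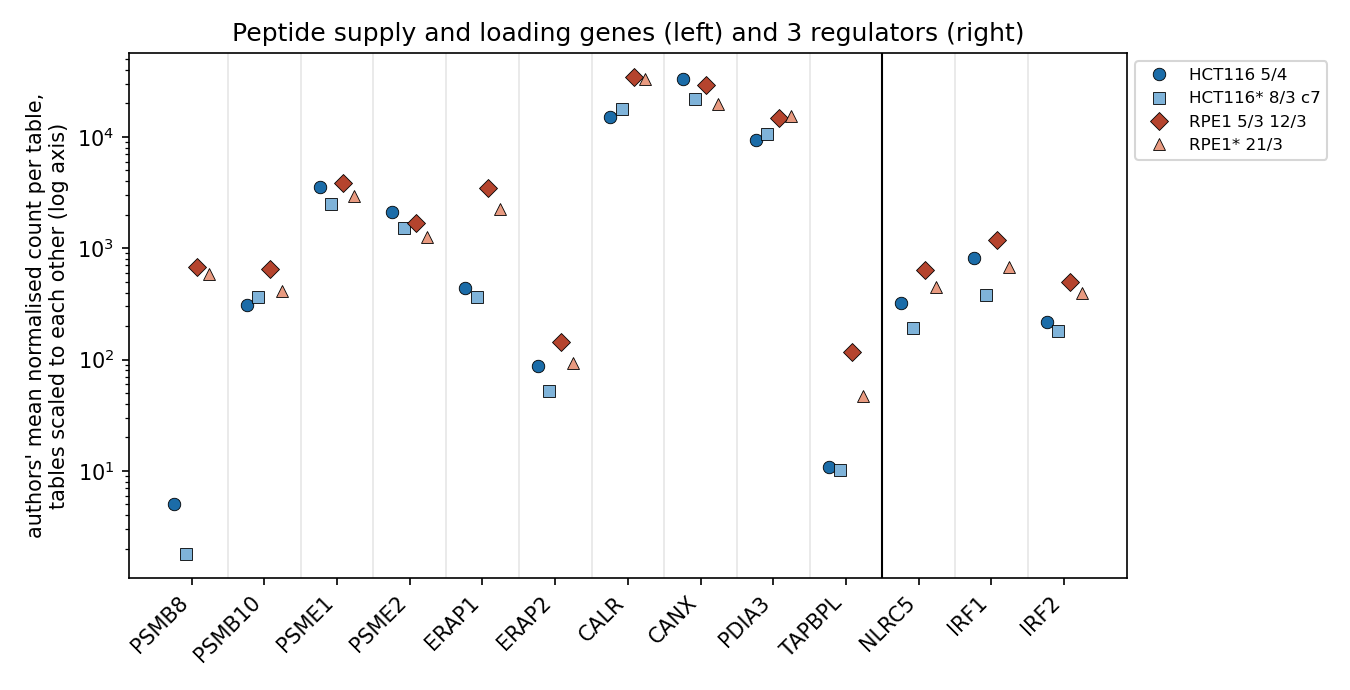
Levels of 10 genes of peptide supply and loading (left of the vertical line) and of the regulators NLRC5, IRF1 and IRF2 (right) in the 4 tables, as the authors' mean normalised count after scaling the tables to each other (log axis). PSMB8, ERAP1 and TAPBPL are higher in the RPE1 tables by at least 2-fold, and IRF1 is higher in the 5/4 and 5/3 12/3 tables than in the other table of its background.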

How the data were processed

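Total RNA of 8 groups of human cell lines, with 3 libraries each, was sequenced as single reads of 100 bases. Per the study's methods and the submitters' processing notes, the authors cut off adapters (cutadapt), aligned the reads to the hg19 build by TopHat2 2.0.10 with at most 1 location kept for a read, assigned them to exons of RefSeq genes by featureCounts 1.4.3, and ran DESeq2 on the counts, whose version is not given in the sources used here. Each deposited table holds for every gene a mean signal, which is the authors' mean of normalised counts over the 6 libraries of an aneuploid line and its parental line. The tables also hold the authors' log2 fold changes with standard errors, statistics and p-values between aneuploid and parental line, and these were not used, so that comparison and its error are not reported. The depth of single libraries cannot be read from them.

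Tables were joined by gene name. Of 16742 genes, 13107 were in all 4 tables and 12764 of these had an average mean of at least 10. Tables were scaled by the median of ratios over those genes. A gene counted as higher in a background if its lower table was at least 2-fold above the higher table of the other background, with no test, and the ratio of backgrounds is the difference of mean log2 levels. The calculation was tested on simulated data. Lengths and positions were from GENCODE on GRCh37, the build named hg19 in the notes, and 85.5% of the genes of any table had a length. Promoters were from RefSeq on GRCh38.p14 and motifs were searched as exact letters on both strands. The genes and lists were chosen with earlier results of these data known, and all pathway and marker genes past 2-fold, with the partner genes of fixed ratios, are named, while some other list genes are not reported here. Alternatives were scaling by the sum or the upper quartile (0.75) of the means, no minimum or a minimum of 100, folds of 1.5 and 4, a pseudocount of 1, leaving out each table, and other gene lengths. Calculations used pandas 2.3.3 and numpy 2.4.6 under Python 3.11.15, with figures by matplotlib 3.10.9.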

Additional observations from a re-analysis of the deposited data

How the results depend on the processing

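No paired analysis was possible because single libraries are not used here and the results come from no test, and for the same reason no replicate could be left out. Scaling by the sum of the means or by the upper quartile each lowered the number of genes at least 2-fold higher in RPE1 from 3 to 1. In all genes, 8.51% passed with the sum and 9.97% with the upper quartile. The sum also lowered the median log2 ratio of the 9 genes from 0.73 to 0.37 and turned HLA-E to -0.00087. A minimum average mean of 100 left 2 genes higher in RPE1 and 0 in HCT116, since HLA-F then falls under the minimum, where 11.5% and 10.2% of all genes passed. A threshold of 4-fold left 0 genes towards RPE1 and 0 towards HCT116, where 5.12% and 4.65% of all genes passed, and 0 genes between the tables of a background, where 1.08% passed for HCT116 and 0.588% for RPE1. One of 1.5-fold raised the number apart between the RPE1 tables from 1 to 3, where 9.71% of all genes passed. Without the table of HCT116* 8/3 c7, 2 genes were higher in HCT116 and the median was 0.41, and without that of RPE1 5/3 12/3 the median was 0.30; the cause was not tested. Leaving out either of the other tables changed neither count by more than 1.5 times. With the union of all exons as gene length, 5 genes changed place in the order of HCT116 5/4, 2 in that of HCT116* 8/3 c7 and 2 in that of RPE1 5/3 12/3, and with the mean transcript length 2, 2 and 3. HLA-B, HLA-C, B2M and TAPBP kept a log2 ratio above 0 and HLA-F, TAP1 and TAP2 one below 0 under every scaling, filter, pseudocount and left-out table that kept the gene. PSMB9 did not keep its size, with log2 ratios from 0.014 to 1.51. The other lengths for ratios of partner genes, and the settings for tables of 1 background, were chosen after seeing the data. With the mean transcript length the ratios of HLA-B, HLA-C and HLA-F to B2M, PSMB9 to PSMB6 and PSME1 to PSME2 moved by over 1.5 times, and with the union of exons that of HLA-F to B2M did, while a change of length moves all 4 tables alike.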

Other observations

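Genes of the class II pathway, which presents peptides from outside the cell to CD4+ T cells, had means of 199 or less in all tables, and no percentile among the genes of a table was above 34.0. Of 8 such genes 4 were in all 4 tables, and none of those 4 was at least 2-fold higher in either background. In all genes, 12.1% were so towards RPE1 and 11.4% towards HCT116. CIITA, the class II transactivator related to NLRC5, was listed at 4.68 in HCT116 5/4, was absent from the table of HCT116* 8/3 c7, and had means of 199 in RPE1 5/3 12/3 and 50.2 in RPE1* 21/3. Its target HLA-DRA had means of 17.1, 36.0, 11.2 and 3.31, higher in the HCT116 tables by 1.42-fold between the nearest scaled tables. CD74, the invariant chain, had means of 37.2, 19.3, 101 and 11.9, so that the RPE1 tables were 6.88-fold apart after scaling. Like IRF1, CD74 lies on chromosome 5. The means of CIITA and of HLA-DRA thus ordered the backgrounds in opposite ways, a description of 4 tables that was not tested.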
